A study of Mus musculus with 6 samples.

Results

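The growth hormone and insulin-like growth factor (IGF) axis of the liver was described here through 10 genes, namely Ghr, Stat5b, Socs2, Cish, Igf1, Igfals, Igfbp1, Igfbp2, Igfbp3 and Igfbp4. They were listed by name, with earlier results of these data known. Every probe set whose single gene symbol was one of the 10 was taken, which gave 21 of the 22626 probe sets tested. All 10 genes had at least 1 probe set, out of 12393 genes with a probe set of 1 symbol. Hepatic mRNA transcript abundance was measured in DUhTP mice, a line bred over many generations for high treadmill performance and known as marathon mice, and in the control line DUC. All animals were male and 70 days old, and the labels give both lines the same origin in a cross of outbred stocks (NMRI orig., Han:NMRI, CFW and CF1) with inbred ones (CBA/Bln, AB/Bln, C57BL/Bln and XVII/Bln), kept so that neither is an inbred strain. The sources used here name no treatment of either line. Each line gave 3 arrays. The labels describe each array as a mouse while the study's methods describe pools of liver RNA, hence the array was the replicate and the p-values measure the spread among arrays only.

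Pituitary growth hormone binds its receptor on hepatocytes, activates the kinase JAK2 and thereby the transcription factor STAT5B, which drives transcription of Igf1, Igfals, Socs2 and Cish. The products of Socs2 and Cish dampen the receptor's signal in return. IGF-I leaves the liver and circulates in a ternary complex with IGFBP-3 and the acid-labile subunit, which is encoded by Igfals, whereas IGFBP-1, IGFBP-2 and IGFBP-4 form smaller complexes with IGFs. In liver, Igfbp1 is known for its repression by insulin and its induction by fasting.

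RefSeq promoter windows (build GRCm38.p6) were at hand for 9 of the 10 members (all but Socs2), as 14 windows, and the 250 bases before each start were searched for a STAT recognition motif and for the core of the insulin response element. These windows are shown because they hold the only matches among the members, and the capitals mark the motif. The STAT motif TTCNNNGAA, which reads the same on both strands, was present in 2 of the 3 windows of Igfals, beginning at -236 and at -58 from the start. It was present in 7.02% of all 32851 windows.
Igfals chr17:24877594-24877843 (+ strand): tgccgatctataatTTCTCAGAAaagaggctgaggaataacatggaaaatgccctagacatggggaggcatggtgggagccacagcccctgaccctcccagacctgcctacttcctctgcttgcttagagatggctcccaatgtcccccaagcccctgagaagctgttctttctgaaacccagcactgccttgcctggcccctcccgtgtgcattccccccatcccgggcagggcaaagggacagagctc
Igfals chr17:24877981-24878230 (+ strand): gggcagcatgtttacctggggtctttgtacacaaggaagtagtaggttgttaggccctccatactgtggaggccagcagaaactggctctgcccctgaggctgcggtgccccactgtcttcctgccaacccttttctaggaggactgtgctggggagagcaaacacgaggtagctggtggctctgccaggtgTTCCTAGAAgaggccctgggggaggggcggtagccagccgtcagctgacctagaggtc
The motif CAAAACAA, searched on both strands, was present in the window of Igfbp1, beginning at -108, and in 2.21% of all windows.
Igfbp1 chr11:7197537-7197786 (+ strand): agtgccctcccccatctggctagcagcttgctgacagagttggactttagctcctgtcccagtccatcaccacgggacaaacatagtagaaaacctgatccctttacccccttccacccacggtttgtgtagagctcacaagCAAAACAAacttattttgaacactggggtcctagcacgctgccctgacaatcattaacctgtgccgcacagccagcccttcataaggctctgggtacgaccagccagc
A match of letters is a description of the window and not a measured binding site. Both motifs were absent from the windows of Igfbp2, Igf1, Cish, Ghr, Stat5b, Igfbp3 and Igfbp4, which says only that these letters do not occur within the 250 bases.

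The values are deposited PLIER intensities in arbitrary units. Array medians were 53.1 to 56.6 in DUhTP and 56.3 to 57 in DUC, and pairs of arrays correlated at r of at least 0.959 within DUhTP, at least 0.974 within DUC and at least 0.950 between the lines (log2 scale, across probe sets). Hepatocyte markers were bright on all arrays, for example albumin (Alb) with 13776 ± 415 in DUhTP and 14103 ± 317 in DUC (SD, n = 3 each). Their summed intensity was 83512 to 85321 in DUhTP and 92511 to 96872 in DUC, with 0 of 8 markers higher and 1 (Tat, tyrosine aminotransferase) lower. Summed markers of Kupffer cells and leukocytes were 3399 to 4300 in DUhTP and 2527 to 3354 in DUC, with 1 of 11 (Clec4f) higher. Endothelial markers summed to 3344 to 3668 in DUhTP and 2998 to 3181 in DUC (0 of 10 called), stellate markers to 2143 to 2700 in DUhTP and 2232 to 2546 in DUC (1 of 10, Col3a1, higher), cholangiocyte markers to 114 to 151 in DUhTP and 127 to 136 in DUC (0 of 5 called), and erythroid markers to 1283 to 1657 in DUhTP and 761 to 846 in DUC (1 of 3, Alas2, higher). Alas2 made up most of the erythroid sum, with means of 1316 in DUhTP and 709 in DUC. Hba-a1 (43.4 in DUhTP and 46.2 in DUC) and Slc4a1 (63.2 in DUhTP and 55.5 in DUC) were dim and not called. Exocrine pancreas markers summed to 4569, 1051 and 2893 in DUhTP replicates 1 to 3 and to 5299, 10403 and 7836 in DUC replicates 1 to 3, with 0 of 11 called but a median log2 fold change of -2.55. With 16 added, 6 of the 11 pancreas markers were called lower, 4 of the 11 Kupffer cell and leukocyte markers higher and 1 lower, and 2 of the 8 hepatocyte markers lower. Of all genes, 1.92% were called higher and 1.40% lower without a constant, and 5.31% and 6% with 16 added. In whole liver, fewer cells of a type and less RNA per cell cannot be told apart.

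In DUhTP livers Igfals mRNA was higher (FC 2.79) and Socs2 (FC -5.13 and -3.52 on its 2 probe sets), Igfbp1 (FC -4.12) and Igfbp2 (FC -1.89) mRNAs were lower than in DUC livers. FC is the fold change of DUhTP over DUC, written as the negative of DUC over DUhTP where DUhTP was lower. No probe set of Ghr, Stat5b, Cish, Igf1, Igfbp3 or Igfbp4 passed the threshold of an adjusted p under 0.05 (limma, Benjamini-Hochberg over 22626 probe sets, no constant added before log2). Thus 1 of 10 member genes was called higher, beside 1.92% of all genes, and 3 of 10 were called lower, beside 1.40% of all genes. Per probe set, 1 of 21 was called higher, beside 1.36% of all probe sets, and 4 of 21 lower, beside 1.05%. With a fold over 2 as a further requirement, 1 was higher (0.804% of all probe sets) and 3 were lower (0.641%), since Igfbp2 stayed under 2. Because the members were chosen with earlier results of these data known, these shares describe them and test no excess.

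The median log2 fold change over the brightest probe set of each member was -0.01, beside 0.00 over all genes. In 5 of the 21 probe sets all DUhTP arrays lay above all DUC arrays, beside 13.6% of all probe sets, and in 5 they lay below, beside 15.8%. Apart from the called probe sets these were Ghr 1451501_a_at, Stat5b 1422103_a_at and Igf1 1452014_a_at and 1419519_at on the higher side and Igf1 1437401_at on the lower side. Adding 16 to each intensity before log2, which reduces the spread of dim probe sets, gave 2 member probe sets higher (3.92% of all) and 5 lower (4.70% of all). The additional ones were Ghr 1451501_a_at and Igf1 1437401_at.

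**Figure D1:**
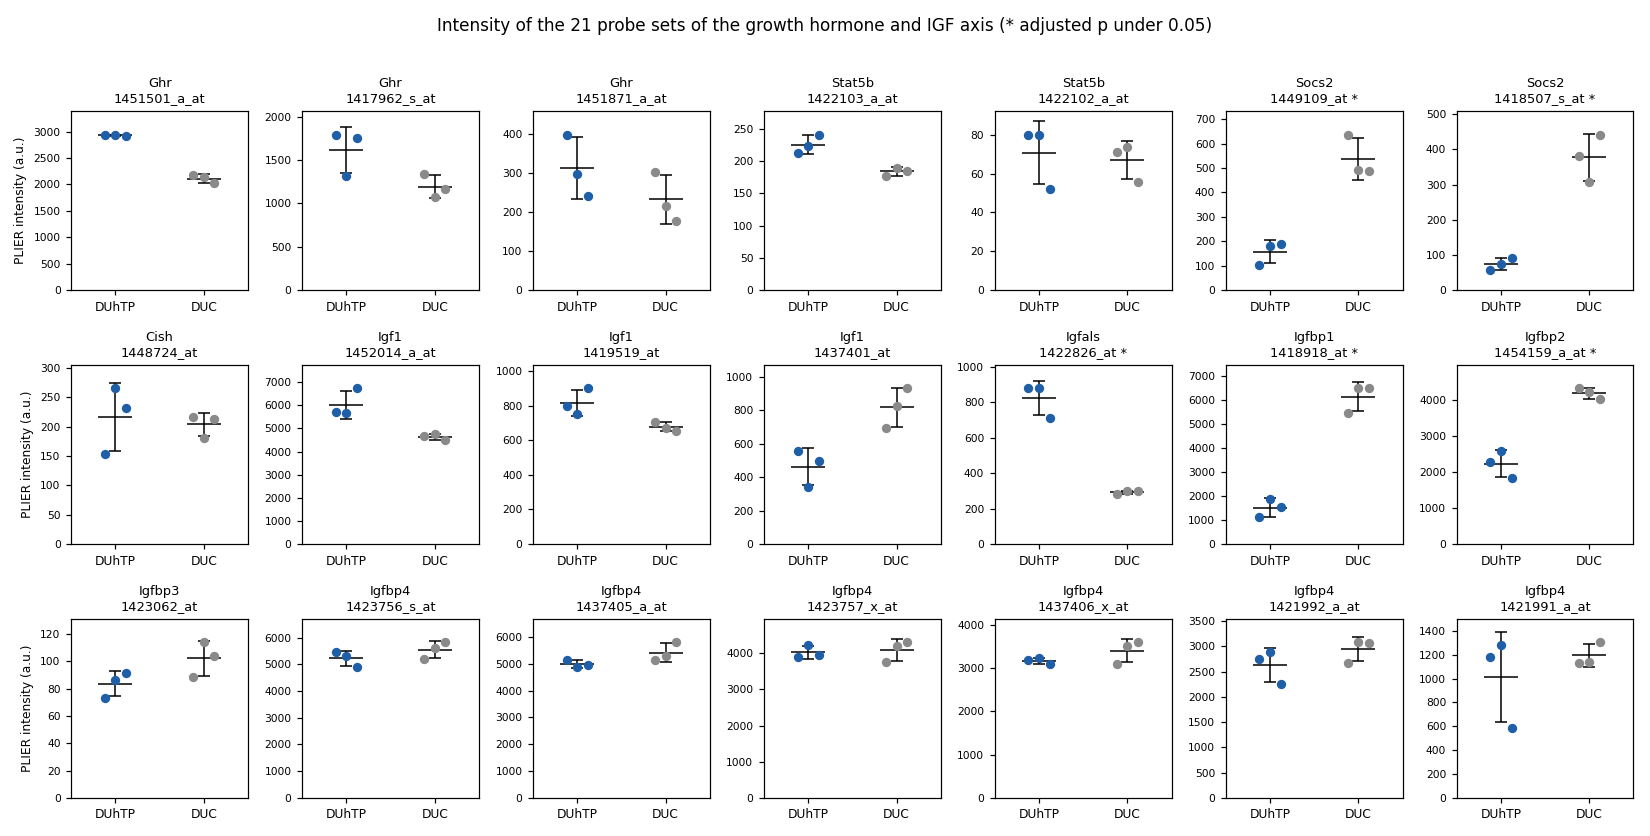
Each panel is 1 probe set, with PLIER intensity in arbitrary units from 0 upwards on the y axis, DUhTP arrays (blue, replicates 1 to 3 from left to right) beside DUC arrays (grey), and the mean with SD in black. The 5 panels with an asterisk have groups that do not overlap, whereas the groups overlap in all 6 panels of Igfbp4 and in those of Cish and Igfbp3.

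The receptor and its transcription factor came first in the order of the signal. Ghr, encoding the growth hormone receptor, had 2942, 2926 and 2924 on its brightest probe set 1451501_a_at in DUhTP replicates 1 to 3, against 2177, 2137 and 2018 in DUC replicates 1 to 3. The 3 DUhTP arrays were nearly alike and all lay above the DUC arrays. The means were 2931 ± 9.85 in DUhTP and 2111 ± 82.6 in DUC (SD, n = 3 each), a log2 difference of 0.47 (SE 0.10, 95% interval 0.23 to 0.72) and an FC of 1.39. The adjusted p was 0.0713 without a constant and 0.0218 with 16 added (limma), so the call depended on that setting. With 16 added it was kept without DUhTP 2 or 3 and lost without DUhTP 1 (adjusted p 0.0541) or DUC 1, 2 or 3 (0.0619, 0.0813 and 0.0910), and limma-trend, a fit that lets the variance follow the intensity, gave 0.00215.

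The other 2 probe sets of Ghr had the same direction with overlapping ranges. On 1417962_s_at the intensity was 1794, 1314 and 1750 in DUhTP and 1336, 1079 and 1162 in DUC (log2 difference 0.43, SE 0.17, adjusted p 0.221 by limma). On 1451871_a_at, the dimmest of the 3, it averaged 313 ± 79.3 in DUhTP and 233 ± 64.0 in DUC (SD, n = 3 each), with a log2 difference of 0.43 (SE 0.27) and an adjusted p of 0.412 by limma. All 3 differences were thus close in size, and they differed in their spread. Stat5b, which encodes the transcription factor, had 212, 223 and 241 on 1422103_a_at in DUhTP against 177, 190 and 185 in DUC. The groups did not overlap, but the log2 difference of 0.29 (SE 0.11, FC 1.22) had an adjusted p of 0.199 (limma). On the dimmer Stat5b 1422102_a_at, values were 80.1, 80.1 and 52.1 in DUhTP and 71.3, 73.6 and 55.6 in DUC, which overlapped (log2 difference 0.07, SE 0.22, adjusted p 0.899 by limma). Replicate 3 was the lowest array of both lines there.

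Of the feedback inhibitors of the receptor, Socs2 was called and Cish was not. Socs2 encodes suppressor of cytokine signalling 2, whose loss in mice leads to high growth. On 1418507_s_at its intensity was 56.3, 75.7 and 90.3 in DUhTP, against 382, 308 and 442 in DUC. Every DUhTP array was far below every DUC array. The means were 74.1 ± 17.0 in DUhTP and 377 ± 66.9 in DUC (SD, n = 3 each), a log2 difference of -2.36 (SE 0.23, 95% interval -2.91 to -1.80; adjusted p 0.0153 by limma). Its rank among all 22626 probe sets was 65 counted from the largest decrease.

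On the second Socs2 probe set, 1449109_at, values were 103, 180 and 188 in DUhTP and 637, 491 and 486 in DUC. The groups were again wide apart, with 157 ± 47.2 in DUhTP and 538 ± 85.8 in DUC (SD, n = 3 each). The log2 difference was -1.82 (SE 0.27, 95% interval -2.48 to -1.15, adjusted p 0.0363 by limma). DUhTP replicate 1 was lowest on both probe sets. With 16 added the FC was -4.37 and -3.27 on these probe sets, and the adjusted p was 0.000108 and 0.00111 (limma). Left-out arrays mattered for the call: 1418507_s_at lost it without DUhTP 2 (adjusted p 0.0543) and without DUC 1, 2 or 3 (0.0691, 0.0633 and 0.0831), and 1449109_at lost it without any 1 array (0.0563, 0.0781 and 0.0846 without DUhTP 1, 2 and 3, and 0.123, 0.132 and 0.137 without DUC 1, 2 and 3, limma). With 16 added, both kept it in all 6 cases.

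Cish encodes the cytokine-inducible SH2-containing protein, another inhibitor of the receptor. Its single probe set had 153, 265 and 232 in DUhTP and 217, 181 and 213 in DUC. The DUhTP arrays enclosed the DUC arrays. The log2 difference was 0.06 (SE 0.23, 95% interval -0.50 to 0.62, adjusted p 0.914 by limma), and the exact two-sided permutation test gave p = 0.80. The difference from Socs2 was not tested.

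Igf1, the hormone of the axis, gave different directions on its 3 probe sets. On the brightest, 1452014_a_at, values were 5699, 5656 and 6732 in DUhTP and 4693, 4745 and 4483 in DUC. On 1419519_at they were 800, 752 and 902 in DUhTP and 708, 673 and 657 in DUC. In both, all DUhTP arrays lay above all DUC arrays, by log2 differences of 0.37 (SE 0.12, 95% interval 0.08 to 0.66, FC 1.30) and 0.26 (SE 0.12, FC 1.20). The adjusted p was 0.157 and 0.267 (limma). On 1437401_at the order was the opposite, with 556, 339 and 495 in DUhTP and 695, 826 and 931 in DUC. The log2 difference there was -0.84 (SE 0.23, 95% interval -1.39 to -0.29, FC -1.79), with an adjusted p of 0.119 without a constant and 0.0249 with 16 added (limma). With 16 added that call was lost without DUC 2 (0.0922) or DUC 3 (0.110). The limma-trend fit called 1452014_a_at higher (adjusted p 0.0168) and 1437401_at lower (adjusted p 0.0132).

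Because both probe sets carry the same gene symbol, their ratio was taken within each array, a measure chosen after their opposite directions were seen, so that it describes them and tests nothing new. The log2 ratio of 1437401_at over 1452014_a_at was -3.36, -4.06 and -3.77 in DUhTP and -2.75, -2.52 and -2.27 in DUC. All DUhTP ratios lay below all DUC ratios, by 1.21 on average (mean -3.73 ± 0.35 in DUhTP and -2.52 ± 0.24 in DUC, SD, n = 3 each), and the exact permutation test gave p = 0.10, the smallest that 3 against 3 arrays allow. Which Igf1 transcripts each detects was not given in the sources used here, so the level of total Igf1 mRNA is not settled by these values.

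Igfals, which encodes the acid-labile subunit of the circulating IGF complex, had 879, 879 and 712 in DUhTP, against 284, 300 and 297 in DUC. The DUC arrays were nearly equal and the lowest DUhTP array was still well above them. The means were 824 ± 96.5 in DUhTP and 294 ± 8.30 in DUC (SD, n = 3 each). The log2 difference was 1.48 (SE 0.13, 95% interval 1.17 to 1.80), the FC 2.79 and the adjusted p 0.0118 (limma). Igfals had the smallest adjusted p of the members and rank 226 of 22626 counted from the largest increase. The call was kept without DUhTP 1, 2 or 3 and lost without DUC 1, 2 or 3 (adjusted p 0.0594, 0.0704 and 0.0740), while with 16 added (FC 2.70, adjusted p 0.000147, limma) it was kept in all 6 cases. The STAT motif shown above is in 2 windows of this gene, and binding was not measured.

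The binding proteins fell into called and uncalled genes. Igfbp1, encoding the insulin-repressed binding protein, had 1130, 1890 and 1530 in DUhTP, against 5465, 6477 and 6480 in DUC. No DUhTP array came near the DUC arrays. The means were 1517 ± 380 in DUhTP and 6141 ± 585 in DUC (SD, n = 3 each). The log2 difference was -2.04 (SE 0.21, 95% interval -2.56 to -1.52, FC -4.12, adjusted p 0.0183 by limma), which ranked 109 of 22626 from the largest decrease. The call was kept without DUhTP 1 or 2 and lost without DUhTP 3 (0.0659) or DUC 1, 2 or 3 (0.0665, 0.0930 and 0.0989). With 16 added it was kept without any of the 6, at an FC of -4.09 and an adjusted p of 0.000163 on all arrays (limma).

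Igfbp2, encoding a further hepatic binding protein, had 2287, 2585 and 1834 in DUhTP and 4328, 4216 and 4025 in DUC. The groups were apart, with 2235 ± 378 in DUhTP and 4190 ± 153 in DUC (SD, n = 3 each). The log2 difference was -0.92 (SE 0.15, 95% interval -1.30 to -0.54, FC -1.89) and the adjusted p 0.0475 (limma), just under the threshold. It was lost without any 1 array (0.110, 0.0660 and 0.0862 without DUhTP 1, 2 and 3, and 0.146, 0.161 and 0.159 without DUC 1, 2 and 3). With 16 added the adjusted p was 0.00368 and the call was kept in all 6 cases (limma).

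Igfbp3 encodes the binding protein of the ternary complex, which in rat liver is made mainly by non-parenchymal cells. Its probe set was dim beside those of Igfbp1, Igfbp2 and Igfbp4, with 73.2, 86.6 and 91.1 in DUhTP and 88.5, 114 and 104 in DUC, and the groups overlapped. The log2 difference was -0.29 (SE 0.15, 95% interval -0.66 to 0.08, adjusted p 0.340 by limma, exact permutation p = 0.20). The summed Kupffer and endothelial markers given above were higher in DUhTP, with 1 of 11 and 0 of 10 called higher. Their part in the Igfbp3 value was not tested. Igfbp1 and Igfbp3 are neighbouring genes on chromosome 11, so that a called and an uncalled member lie side by side. Igfbp2 has Igfbp5 as its neighbour on chromosome 1, and Igfbp5 had 66.9 ± 28 in DUhTP and 44.7 ± 9.18 in DUC (SD, n = 3 each; log2 difference 0.50, SE 0.36, adjusted p 0.483 by limma).

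Igfbp4, an inhibitory binding protein that is abundant in liver, had 6 probe sets, with log2 differences of -0.31 to -0.02 and adjusted p of 0.552 to 0.938 (limma). All 6 had overlapping groups. On the brightest, 1423756_s_at, values were 5460, 5309 and 4905 in DUhTP and 5200, 5599 and 5826 in DUC (log2 difference -0.08, SE 0.11, 95% interval -0.35 to 0.18, exact permutation p = 0.30). The widest interval belonged to 1421991_a_at, with 1183, 1281 and 582 in DUhTP and 1135, 1144 and 1306 in DUC. DUhTP replicate 3 was low there, and without it the log2 difference was 0.05 instead of -0.31.

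**Figure D2:**
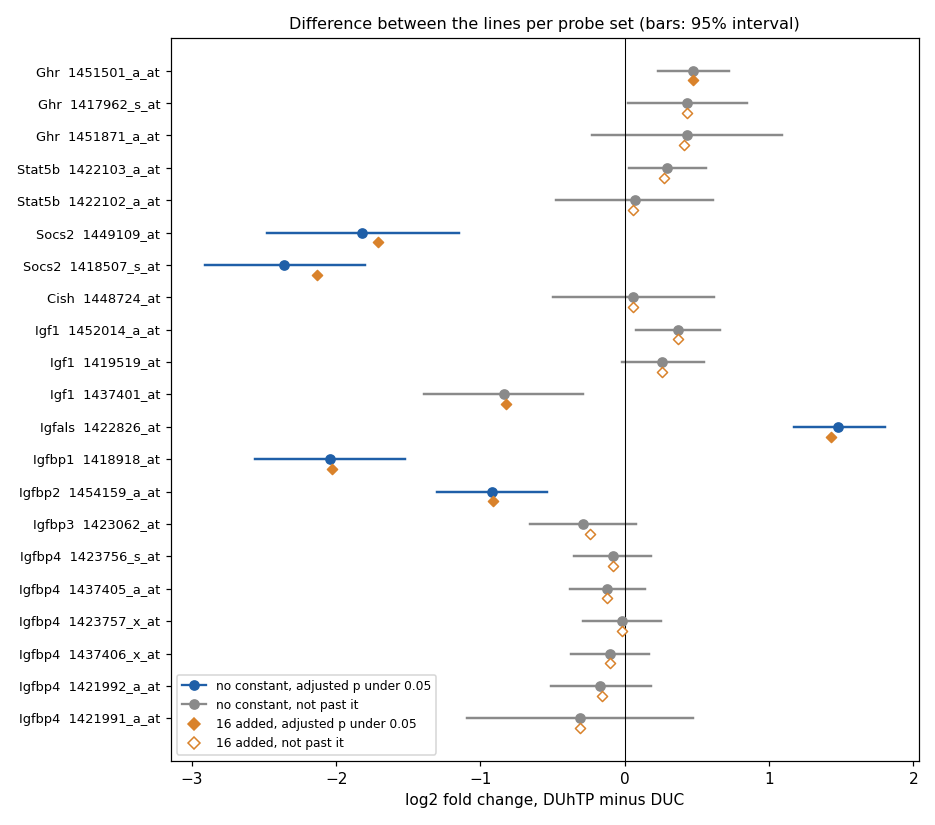
Log2 fold change of DUhTP minus DUC (x axis) for each member probe set (y axis), as circles with 95% intervals without a constant and as diamonds with 16 added (filled colours mark an adjusted p under 0.05). Igfals lies to the right and Socs2, Igfbp1 and Igfbp2 to the left under both settings, while Ghr 1451501_a_at and Igf1 1437401_at passed with 16 added only.

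For the brightest probe set of each of Ghr, Stat5b, Socs2, Igf1, Igfals, Igfbp1 and Igfbp2, whose groups did not overlap, the exact permutation test gave p = 0.10, the smallest possible. Among the called members, the order of arrays within DUhTP was not shared: replicate 1 was lowest for Socs2 and Igfbp1, and replicate 3 was lowest for Igfals and Igfbp2. The summed pancreas markers were lowest in DUhTP replicate 2 and highest in replicate 1. The part of pancreas RNA in the lower values of Socs2, Igfbp1 and Igfbp2 was not tested. Across all 22626 probe sets, leaving out 1 array reduced the calls to between 1 and 122, against 546 on all 6 arrays.

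**Figure D3:**
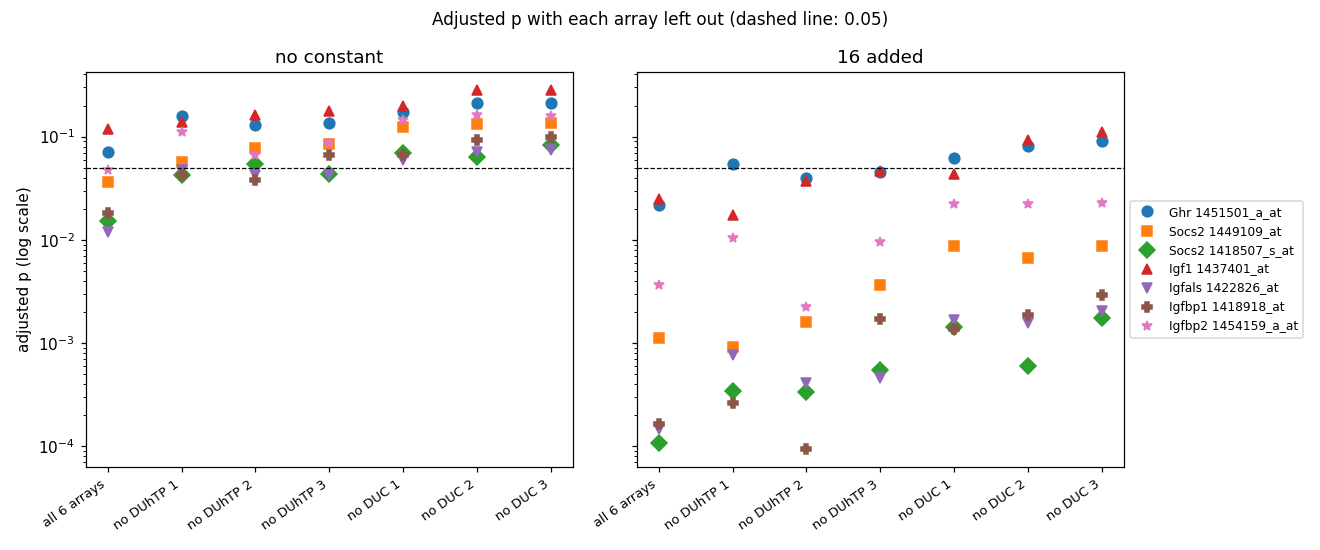
Adjusted p (y axis, log scale) of 7 member probe sets on all 6 arrays and with each array left out (x axis), without a constant on the left and with 16 added on the right (dashed line at 0.05). Without a constant all points lie above the line once a DUC array is left out, and with 16 added the points of Igfals, Socs2, Igfbp1 and Igfbp2 lie below it throughout.

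Other genes of the pathway were read from 4 lists, also written with earlier results of these data known, so their counts test no excess. Of the growth hormone receptor signalling list, 33 of 41 genes were measured and 0 were called in either direction without a constant (limma; 6 higher and 8 lower at an unadjusted p under 0.05, beside 13.4% and 14.2% of all genes), with a median log2 fold change of 0.00. The kinase gene Jak2 had 99.0 ± 18.9 in DUhTP and 92.4 ± 4.54 in DUC (SD, n = 3 each), a log2 difference of 0.08 (SE 0.17). The members of highest intensity were Hnf4a, a liver transcription factor (3114 ± 160 in DUhTP and 4146 ± 257 in DUC, SD, n = 3 each; log2 difference -0.41, adjusted p 0.116), Cebpa, another liver transcription factor (-0.08, 0.782), and Elob, encoding elongin B (0.22, 0.321, limma). With 16 added, 2 genes were higher and 3 lower, beside 5.31% and 6% of all genes. These were Bcl6, a repressor of STAT5 targets (130.0 ± 33.9 in DUhTP and 64.8 ± 16.3 in DUC; log2 difference 1.0, adjusted p 0.131 without a constant and 0.0317 with 16), and Sh2b2 on 1450718_at (1.1, 0.102 and 0.0470) on the higher side, and Cebpb (632 ± 80.1 in DUhTP and 1202 ± 246 in DUC; -0.91, 0.0732 and 0.00953), Hnf4a (0.0467 with 16) and Sos1 on 1421884_at (-0.98, 0.0939 and 0.0368) on the lower side. The brightest probe sets of Sh2b2 (log2 difference 0.15, adjusted p 0.586 without a constant and 0.597 with 16) and Sos1 (0.02, 0.961 and 0.962) were not called (limma). Jak2, Bcl6, Sh2b2, Cebpb and Sos1 were named after their values were seen, as were Igfbp5, Igf1r, Insr, Igf2r, Igf2, Klk1, Fmo2, Tox and Hao2.

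Of the IGF system list, 38 of 40 genes were measured, 1 was called higher (beside 1.92% of all genes) and 0 lower (beside 1.40%), with a median log2 fold change of -0.03. At an unadjusted p under 0.05 (limma), 4 were higher and 1 lower, beside 13.4% and 14.2% of all genes. The called gene was Grb10, an adaptor that inhibits the insulin and IGF receptors, on its dim probe set 1425457_a_at (29.3, 31.7 and 24.1 in DUhTP and 15.6, 14.0 and 16.3 in DUC; log2 difference 0.89, adjusted p 0.0448, limma). Its brightest probe set, 1425458_a_at, went the other way by -0.11 (adjusted p 0.698), and the call was lost without any 1 array. The receptors Igf1r (log2 difference 0.12, SE 0.12), Insr (0.06, SE 0.14) and Igf2r (-0.02, SE 0.14) and the second hormone Igf2 (-0.10, SE 0.28) were not called. The brightest measured genes of the list were the proteases Plg (0.07), Klkb1 (-0.08) and Furin (-0.37, adjusted p 0.250). Klk1, a tissue kallikrein also made in pancreas, had a log2 difference of -1.76 (adjusted p 0.166, and 0.0362 with 16 added, limma). It was lower alongside the pancreas markers, whose part in it was not tested.

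The pituitary secretes growth hormone in pulses in male mice and more evenly in females, and many liver genes follow that pattern. Of the genes known as male-biased, 21 of 31 were measured, and 19 of 21 had a log2 fold change above 0 on the brightest probe set. The median was 0.15, beside 0.00 over all genes, and many of these differences were small. Called higher were 5 and lower 1, beside 1.92% and 1.40% of all genes. The higher ones were Serpina12, encoding vaspin (395 ± 68.4 in DUhTP and 35.7 ± 5.32 in DUC, SD, n = 3 each; FC 11, and 7.9 with 16 added, adjusted p 0.00708), Hsd3b5, a ketosteroid reductase (2823 ± 201 in DUhTP and 564 ± 122 in DUC; FC 5.09, 0.0105), Keg1 (FC 2.20, 0.0356), the sulfotransferase gene Sult5a1 (FC 1.90, 0.0310) and Nudt7, a peroxisomal coenzyme A hydrolase (FC 1.65, 0.0316, limma). The abundant male-biased transcripts Gstp1 (log2 difference 0.04), Mup3 (0.11) and Cyp2d9 (0.03) were not called. Egfr, the epidermal growth factor receptor, was lower on 1424932_at (348 ± 31.1 in DUhTP and 841 ± 70.5 in DUC; FC -2.41, adjusted p 0.0166), but its brightest probe set gave -0.26 (0.325) and 1454313_at gave 0.65 (0.0777, limma), so its probe sets disagreed.

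Of the genes known as female-biased, 25 of 37 were measured, and 6 of 25 had a log2 fold change above 0 (median -0.39, beside 0.00 over all genes). Called higher was 1 and lower 7, beside the same 1.92% and 1.40% of all genes. The lower ones were the cytochrome Cyp17a1 (21.2 ± 10.8 in DUhTP and 406 ± 64.6 in DUC, SD, n = 3 each; FC -21.5, and -11.6 with 16 added, adjusted p 0.0200), the fatty acid hydroxylase Cyp4a14 (935 ± 151 in DUhTP and 5961 ± 584 in DUC; FC -6.41, 0.00708), the peroxisomal transporter Abcd2 (6.84 ± 1.04 in DUhTP and 41.6 ± 11.5 in DUC; FC -5.98, and -2.49 with 16 added, 0.0122), the organic anion transporter Slco1a4 (FC -3.64, 0.0454), the transcriptional cofactor Trim24 (FC -3.40, 0.00708), and Fmo2 on 1422905_s_at (FC -4.0, and -2.45 with 16 added, 0.0290) and Tox on 1425484_at (FC -2.52, 0.0200, limma). Cyp2b9 went against them, with 1127 ± 245 in DUhTP and 63.5 ± 6.94 in DUC (FC 17.6, and 14.2 with 16 added, adjusted p 0.00708). DUhTP intensities of Cyp17a1, Abcd2, Fmo2, Trim24 and Tox lay below the array medians on these probe sets, so the size of their folds depends on the constant. With 16 added the FC was -2.72 for Trim24 and -1.78 for Tox. Hao2, a hydroxyacid oxidase, had 96.7 ± 22.9 in DUhTP and 11.4 ± 7.86 in DUC (FC 10.6, and 4.18 with 16 added), with an adjusted p of 0.0661 without a constant and 0.000623 with 16 added (limma), where 2 genes were called higher and 9 lower. Cyp2b10 (log2 difference -0.15), Cyp3a44 (-0.19) and Ntrk2 (0.14) were not called. The brightest probe sets of Fmo2 (-0.35, adjusted p 0.572) and Tox (-0.47, adjusted p 0.273) were lower too but not called (limma, no constant). The list names describe sex bias in other mice, and no female was measured here. Leaving out 1 array left 0 to 2 male-biased genes higher and 0 to 6 female-biased genes lower, and with 16 added 5 to 7 and 8 to 9. Calls over all 22626 probe sets then numbered 1 to 122 without a constant and 771 to 1591 with 16 added.

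**Figure D4:**
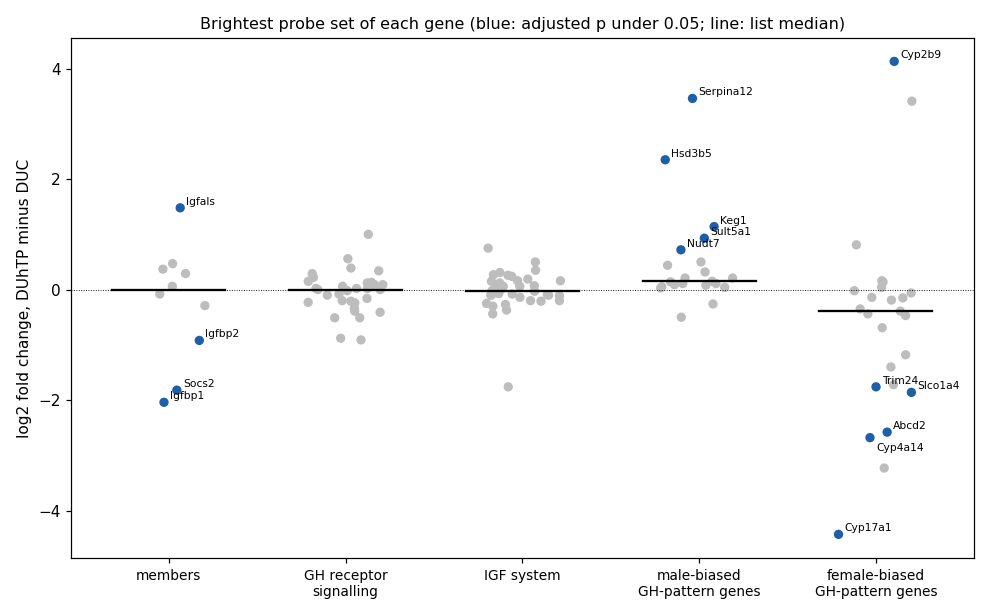
Log2 fold change of DUhTP minus DUC (y axis) on the brightest probe set of each gene, for the 10 members and the 4 lists (x axis), with called genes in blue and the median of each list as a line. The medians of the members and of the receptor signalling and IGF system lists lie at or near 0, that of the male-biased list at 0.15 and that of the female-biased list at -0.39, and genes called on a dimmer probe set alone are grey.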

How the data were processed

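Liver RNA of 3 DUhTP and 3 DUC samples was hybridised to Affymetrix mouse expression arrays. The authors applied a global scaling with the GCOS 1.1.1 software and PLIER for the summary per probe set, and the deposited values are intensities on a linear scale. Of 22690 probe sets, 64 controls were left out. Genes were named from the platform annotation, in which 20380 probe sets had 1 symbol, and 20351 of these were matched to the mouse annotation by gene number with 0 symbols changed.

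Intensities were log2 transformed without a constant and the lines compared with limma 3.58.1 (R 4.3.3, lmFit and eBayes) over 22626 probe sets with Benjamini-Hochberg adjustment at 0.05. The script was tested on simulated data. A gene was counted if any of its probe sets was called, and it was represented by its brightest one. The text names all members and, per list, up to 6 called genes with the smallest p and 3 other genes of highest intensity. Members, lists and cell type markers were chosen with earlier results of these data known. Exact two-sided permutation tests (scipy 1.17.1) cannot fall below p = 0.10. Alternatives were 16 added before log2, quantile normalisation, leaving out the dimmest 33.3% of probe sets, limma-trend, array weights, the replicate number as a block, probe sets of several transcripts left out, unadjusted p, a fold over 2, and each array left out. The number of arrays limits the precision.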

Additional observations from a re-analysis of the deposited data

How the results depend on the processing

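With 16 added, counts moved to 2 member genes and 2 member probe sets higher, 2 receptor signalling genes higher and 3 lower, 1 IGF system gene lower and 2 female-biased genes higher, and member genes lower numbered 4, member probe sets lower 5, male-biased genes higher 7 and female-biased genes lower 9. Egfr was counted in both directions among the male-biased genes at that setting, on different probe sets. With the dimmest 33.3% left out, 2 member genes and 2 member probe sets were higher, and 4 member genes and 5 member probe sets lower. There 1 receptor signalling gene was higher and 2 lower, 0 IGF system genes, 7 male-biased genes and 2 female-biased genes higher. Under limma-trend, 3 member genes and 3 member probe sets were higher, and 4 member genes and 5 member probe sets lower. In that fit 2 receptor signalling genes were higher and 3 lower, and 1 IGF system gene was lower. Male-biased genes higher numbered 7, and 2 female-biased genes were higher and 9 lower. Quantile normalisation gave 1 receptor signalling gene higher and turned Igfbp4 1423757_x_at to 0.01, and array weights turned Cish to -0.06 (log2). Without probe sets of several transcripts, 2 member genes and 2 member probe sets were lower, 0 IGF system genes higher and 6 female-biased genes lower. That setting left out Socs2 1418507_s_at and the only probe set of Igfbp2, 1454159_a_at. At an unadjusted p there were 4 member genes and 5 member probe sets higher, and 4 member genes and 5 member probe sets lower. The lists then had 6 receptor signalling genes higher and 8 lower, 4 IGF system genes higher and 1 lower, 8 male-biased genes higher, and 4 female-biased genes higher and 12 lower. Of all genes, 13.4% were higher and 14.2% lower at an unadjusted p under 0.05. Igf1 was counted in both directions there and under limma-trend. With a fold over 2, 0 IGF system and 3 male-biased genes were higher, and 2 member genes and 3 member probe sets lower. Over all probe sets, calls numbered 546 without a constant, 1951 with 16 added, 2350 under limma-trend, 1851 of 15084 without the dimmest 33.3%, 684 after quantile normalisation and 690 with array weights.

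With the replicate number as a block, 0 member genes, 0 member probe sets and 0 genes of each list were called in either direction, and 0 of all 22626 probe sets (smallest adjusted p 0.0771, limma). At an unadjusted p under 0.05 that fit had 1930 probe sets higher and 2194 lower, among them 4 and 5 member probe sets. Deviations of same-numbered arrays from their line means correlated at 0.00341, 0.0048 and 0.0667, and those of differently numbered arrays at -0.0335 to 0.0281. The labels give same-numbered arrays only a number in common, and a shared batch was not tested.

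With each array left out, with or without 16 added, member genes numbered 0 to 2 higher and 0 to 4 lower, member probe sets 0 to 3 higher and 0 to 5 lower, receptor signalling genes 0 to 3 in each direction, IGF system genes 0 to 1 in each direction, male-biased genes 0 to 7 higher and 0 to 2 lower, and female-biased genes 0 to 2 higher and 0 to 9 lower. Over all 22626 probe sets these fits called 1 to 122 without a constant and 771 to 1591 with 16 added. The log2 difference ranged from -0.11 to 0.29 for Cish, from -0.06 to 0.27 for Stat5b 1422102_a_at, from -0.08 to 0.02 for Igfbp4 1423757_x_at and from -0.52 to 0.05 for Igfbp4 1421991_a_at, each crossing 0. The 5 called member probe sets kept their direction in every such fit, which was fixed in advance because their groups did not overlap. The cause of these changes was not tested.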
